A study of Mus musculus with 144 samples.

Results

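The genes of bile acid synthesis and its regulators were followed through the time course: Cyp7a1, Cyp8b1, Cyp27a1, Cyp7b1, Hsd3b7, Amacr, Slc27a5, Baat, Nr1h4 and Nr0b2. They were chosen by symbol, from the enzymes and nuclear receptors that textbooks assign to the pathway, and are 10 of the 55359 genes in the count files. All 10 were found, and 9 had counts. Their levels are given as CPM, the read pairs of a gene scaled to a common library size. That size is the pairs on genes rescaled by TMM in edgeR, so CPM are not plain shares of those pairs. In a wild-type vehicle library at 2 h, 21 pairs of Cyp7a1 among 15636067 on genes gave 2.13 CPM. At 120 h, 11 pairs among 22141851 gave 0.319 CPM in another.

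The study asked how loss of a dioxin response element (DRE) in Pkm changed the response of hepatocytes to TCDD, a dioxin and a ligand of the aryl hydrocarbon receptor (AHR). Primary hepatocytes of male mice aged 28 days, on collagen-coated plates in medium with dexamethasone, received 10 nM TCDD or DMSO vehicle. They were harvested at 4 early hours of treatment (2, 4, 8 and 12 h) and 5 late ones (24, 48, 72, 96 and 120 h). RNA-Seq gave 4 libraries for each of 36 groups, with 13588848 to 30719161 read pairs on genes. One genotype was labelled wild-type (WT, strain C57BL/6NCrl). The other was PkmΔDRE, a single mutant line with a homozygous whole-body deletion of the DRE in a Pkm intron, so that every tissue of the donor animal carried it. The labels give no isolation or animal for a library, and p-values measure only the spread between these libraries, which may be technical.

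Bile acids are made from cholesterol in hepatocytes. In the classical route the ring is hydroxylated first by CYP7A1, and in the alternative route the side chain is oxidised first by CYP27A1, followed by CYP7B1. The side chain is then shortened in peroxisomes and the product is coupled to taurine or glycine. Bile acids bind the receptor FXR, encoded by Nr1h4, which raises SHP, encoded by Nr0b2, and SHP restrains Cyp7a1 and Cyp8b1. Hepatocytes in dish culture are known to lose liver-specific transcripts over days.

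In GRCm38 the genes lie apart on 7 chromosomes. The hydroxylases are Cyp7a1 (ENSMUSG00000028240) at chr4:6265612-6275633, Cyp8b1 (ENSMUSG00000050445) at chr9:121914356-121916305, Cyp27a1 (ENSMUSG00000026170) at chr1:74713574-74737892 and Cyp7b1 (ENSMUSG00000039519) at chr3:18071950-18243338. The genes of the later steps are Hsd3b7 (ENSMUSG00000042289) at chr7:127800604-127803802, Amacr (ENSMUSG00000022244) at chr15:10981756-10996626, Slc27a5 (ENSMUSG00000030382) at chr7:12988346-12998192 and Baat (ENSMUSG00000039653) at chr4:49489422-49506557. The regulators are Nr1h4 (ENSMUSG00000047638) at chr10:89454234-89533585 and Nr0b2 (ENSMUSG00000037583) at chr4:133553376-133556536. Cyp8b1 is a single exon of 1950 bases, and of the 10 only Hsd3b7 shares exon bases with another annotated gene.

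Total counts of the targeted gene did not follow the genotype labels between 8 and 48 h. At 24 h, Pkm was 34.2 to 188 CPM in vehicle libraries labelled WT and 41.46 to 132.96 CPM with TCDD, which overlap. In libraries labelled PkmΔDRE it was 72.6 to 263 CPM in vehicle and 284 to 470 CPM with TCDD, with no overlap. At 8, 12 and 48 h vehicle and TCDD likewise overlapped with the WT label and, with TCDD higher, did not with the other. Gene counts do not separate the isoforms of Pkm and do not settle whether a label is exchanged, and groups are named by their labels only. The AHR target Cyp1a1 went against the treatment label in 4 libraries labelled WT. It was high in vehicle replicate 1 at 48 h (3253 CPM) and replicate 3 at 96 h (1641 CPM), and low in TCDD replicate 4 at 2 h (1.36 CPM) and at 72 h (27.6 CPM).

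A further 2 vehicle libraries labelled PkmΔDRE went against their hour. In replicate 4 at 4 h, Slc27a5 was 3.32 CPM against 1310 to 1741 CPM in its group, and the sum of 5 hepatocyte markers (Alb, Ttr, Apoa1, Ass1, Cps1) was 10440 CPM. In replicate 4 at 96 h, Slc27a5 was 1690 CPM against 3.18 to 18.9 CPM, and the marker sum was 109000 CPM. These libraries are called the 2 discordant vehicle libraries, and the main results that use them are given with and without them. The hepatocyte markers were present throughout and fell with time. Their sum in WT-labelled vehicle libraries was 132700 to 173300 CPM at 2 h and 2444 to 15670 CPM at 120 h, and in PkmΔDRE-labelled ones 157500 to 241900 CPM and 6564 to 8305 CPM. Across the same hours in WT-labelled vehicle libraries, the sum of 5 cholangiocyte markers went from 62.1 to 146 CPM at 2 h to 538 to 978 CPM at 120 h, with up to 1 marker (Krt19, Krt7 or Epcam) at 0 in a library at each hour. The sum of 6 macrophage markers went from 163 to 291 CPM to 14.5 to 48.9 CPM, with up to 2 (of Clec4f, Adgre1, Cd5l and Marco) at 0 in a library at 120 h. The part of these shifts in the results below was not tested.

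**Figure D1:**
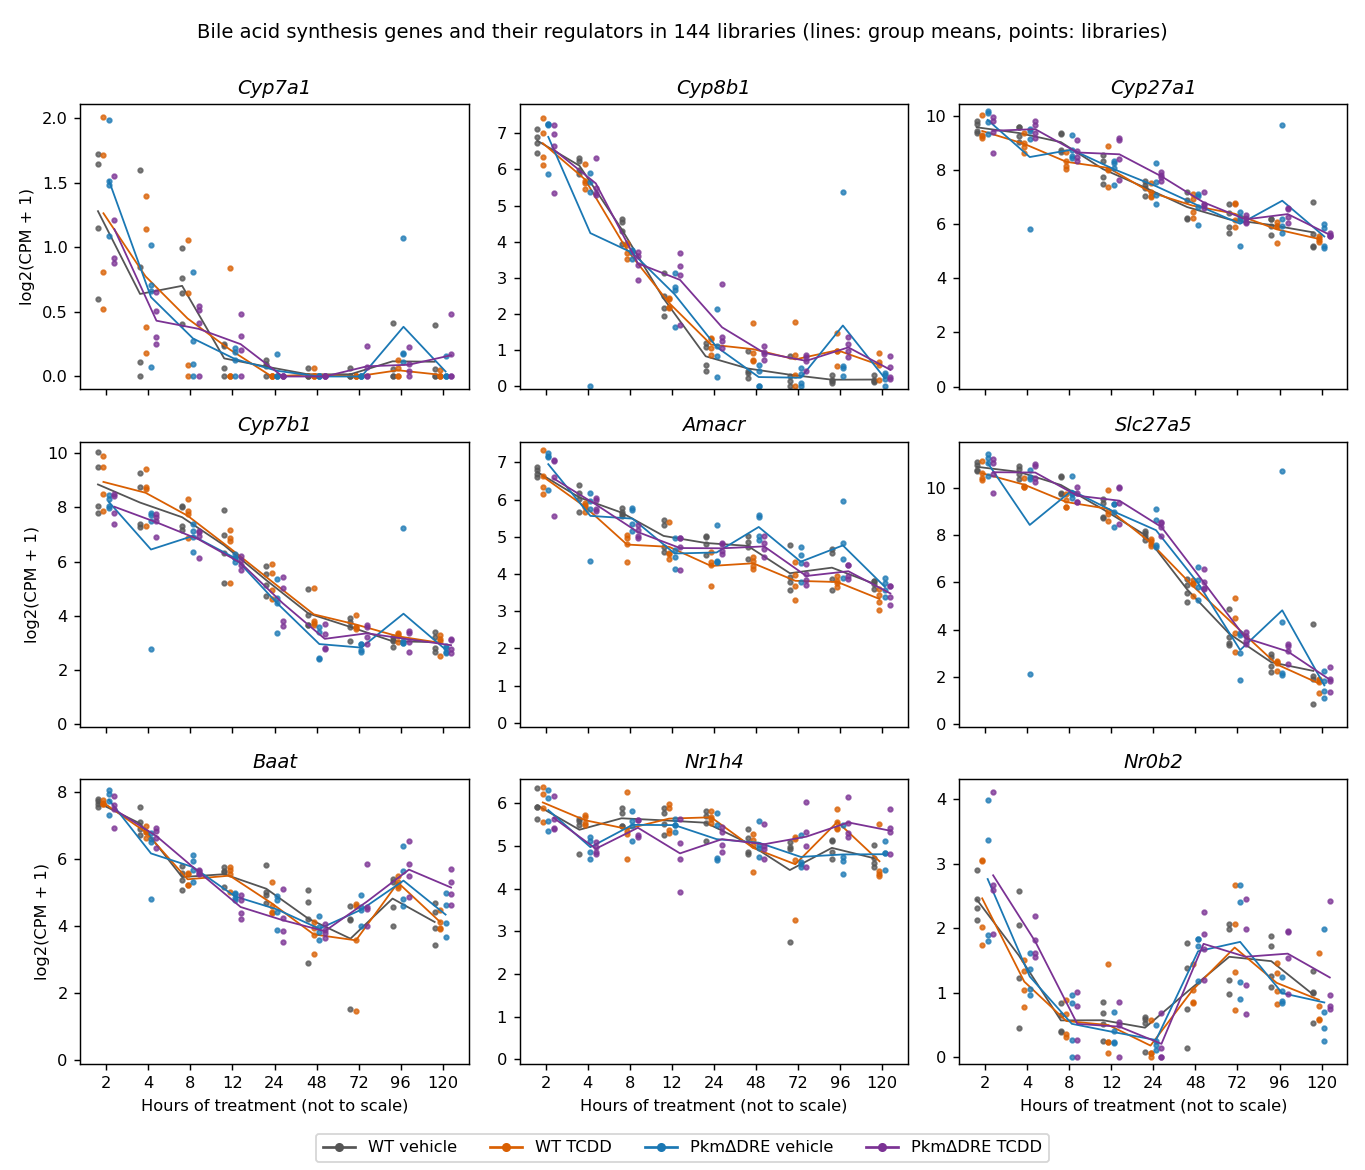
Levels of the 9 measured genes on a log2(CPM + 1) axis that starts at or near 0, against hours of treatment (not to scale); points are single libraries and lines join the 4-library means of the log2 values for each label and treatment. Cyp7a1 and Cyp8b1 approach 0 within 24 h, Nr1h4 stays within a narrow band, Nr0b2 dips at 24 h and lies higher at 72 h, still below its 2 h level, and the stray points at 4 h and 96 h in the PkmΔDRE vehicle groups are the 2 discordant libraries.

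The plot of levels by hour shows how unlike the genes were at the start and how the order changed. Per kilobase of exon, the WT-labelled vehicle libraries at 2 h held Slc27a5 at 780 ± 97.8 CPM (SD, n = 4), above Cyp27a1 at 351 ± 50.7. Cyp7b1 followed at 262 ± 185, a spread so wide that it did not separate from Cyp27a1 above it or Baat below it (106 ± 7.46). Cyp8b1 stood at 57.3 ± 11.2 CPM per kilobase and Amacr at 40.8 ± 3.40, Nr1h4 at 26.8 ± 5.90, Nr0b2 at 4.03 ± 1.18 and Cyp7a1 at 0.370 ± 0.200. The rate-limiting enzyme of the classical route was thus the lowest of the measured genes in the earliest libraries. By 120 h Cyp27a1 led with 26.3 ± 16.6 CPM per kilobase, and Nr1h4 stood second with 11.1 ± 1.90. Slc27a5, the first at 2 h, was at 2.499 ± 3.207, and Cyp8b1 was at 0.0663 ± 0.0369. At 120 h the ranges of Cyp27a1 and Nr1h4 did not overlap, nor did those of Baat (5.11 to 12.9) and Amacr (4.29 to 5.05), or of Nr0b2 (0.3898 to 1.36) and Cyp8b1 (0.0352 to 0.119), while all other neighbours in the order overlapped. In PkmΔDRE-labelled vehicle libraries the order of the 9 genes was the same at both hours.

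Nearly every measured gene fell with time in culture. The vehicle libraries at 24 h and 120 h were compared with those at 2 h by a quasi-likelihood test in edgeR with Benjamini-Hochberg adjustment over all genes tested. A gene was called when its adjusted p was under 0.05 and its fold change at least 1.5. In WT-labelled libraries 8 of the 9 genes were lower at 24 h than at 2 h, where 20% of all tested genes were called lower and 45.8% were called in either direction. From 24 h to 120 h, 6 of 9 fell further (background 18.6% lower, 35.6% called), and from 2 h to 120 h all 9 were lower (24.5% lower, 57.9% called). In PkmΔDRE-labelled libraries the counts were 7 of 9 (15.2% lower, 33.2% called), 4 of 9 (14% lower, 23.4% called) and 9 of 9 (22.7% lower, 49.4% called). Without the 2 discordant libraries, whose spread enters the fit, they were 8 of 9 (17.8% lower, 36.2% called), 5 of 9 (15.5% lower, 28.4% called) and 9 of 9 (23% lower, 50.5% called), and Nr0b2 was then called higher from 24 h to 120 h. The median log2 change from 2 h to 120 h was -3.69 over the 9 genes and 0.21 over all genes with the WT label, and -4.32 and 0.24 with the PkmΔDRE label. All these changes are on the TMM scale. In the Cyp7a1 example given first, the same share of pairs read as a higher CPM at 2 h than at 120 h. Falls as plain shares of the pairs on genes were not tested. In these bulk samples fewer hepatocytes and less RNA per hepatocyte cannot be told apart.

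**Figure D2:**
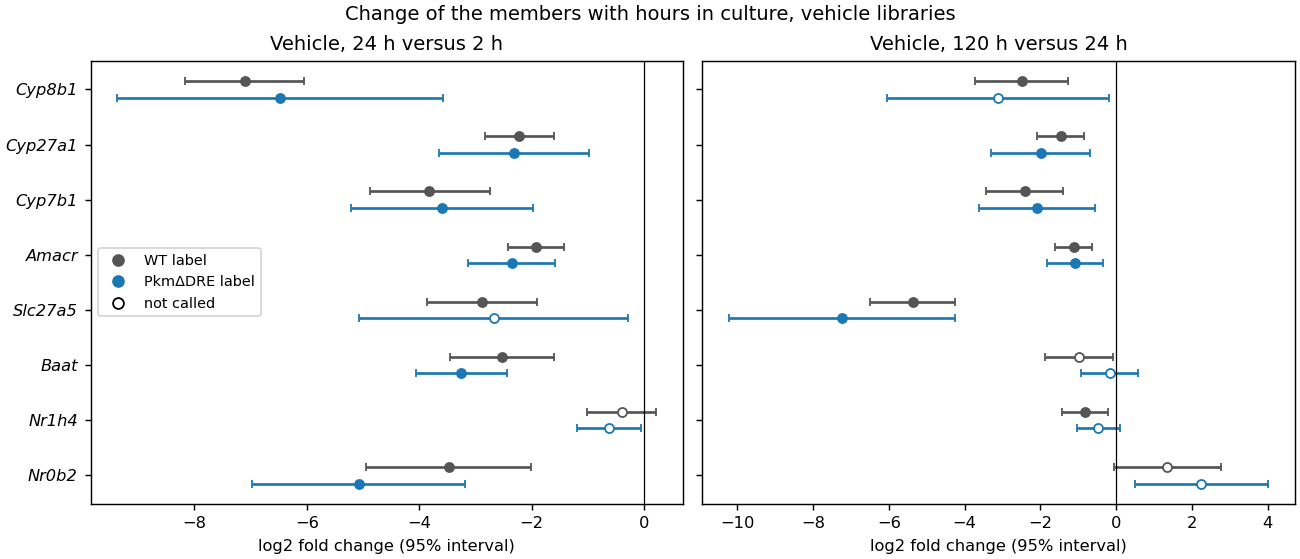
Log2 fold change with 95% intervals of 8 genes in vehicle libraries, from 2 h to 24 h (left) and from 24 h to 120 h (right), for both labels; filled points were called. Cyp8b1 fell most in the first step and Slc27a5 in the second, while Nr0b2 fell in the first and lay above 0 in the second.

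In the classical route, Cyp7a1, the rate-limiting hydroxylase, was scarce from the start. WT-labelled vehicle libraries at 2 h held 2.13, 1.22, 2.30 and 0.514 CPM, and at 24 h 0.0680, 0.0928, 0 and 0.0589 CPM. PkmΔDRE-labelled ones held 1.12 to 2.96 CPM at 2 h and 0 to 0.129 CPM at 24 h. The ranges at 2 h and 24 h did not overlap with either label. The log2 change was -4.72 ± 1.32 (SE; adjusted p = 0.00266) with the WT label and -5.51 ± 1.45 (adjusted p = 0.00405) with the other. In vehicle at 48 and 72 h, 2 of the 16 libraries of both labels had any read of it, and a change with TCDD was not detectable at this depth.

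Cyp8b1 is the hydroxylase that turns synthesis towards cholic acid, and it showed the steepest loss. The 250 bases before its start in RefSeq, on the minus strand at chr9:121916306-121916555 (GRCm38.p6), are shown because Cyp8b1 also carries the late difference with TCDD described below. Capitals mark TATAAA, 31 to 26 bases before the start, which was searched on the transcribed strand after the other motifs and is in 7.59% of 32851 promoter windows.
Cyp8b1: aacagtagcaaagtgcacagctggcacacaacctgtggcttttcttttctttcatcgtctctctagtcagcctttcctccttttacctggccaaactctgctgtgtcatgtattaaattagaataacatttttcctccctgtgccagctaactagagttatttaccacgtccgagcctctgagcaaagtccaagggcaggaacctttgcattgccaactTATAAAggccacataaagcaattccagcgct
The window holds neither GCGTG, the core of a DRE (28.2% of windows, both strands), nor the NR5A2 site CAAGGTCA (1.33%). It also lacks AGGTCA, a hexamer bound by many nuclear receptors, which is part of CAAGGTCA and is in 14% of windows.

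With the WT label, Cyp8b1 in vehicle was 85.99, 119.5, 137.3 and 104.5 CPM at 2 h, and 14.4 to 23.5 CPM at 8 h. At 24 h it was 1.29, 0.325, 0.502 and 1.12 CPM, and at 120 h 0.0946, 0.121, 0.0686 and 0.232 CPM. None of these 4 hours overlapped with another. The log2 change from 2 h to 24 h was -7.11 ± 0.52 (edgeR adjusted p = 7.33e-13), the largest of the 8 called genes, and from 24 h to 120 h it fell by a further 2.49 ± 0.61 (edgeR adjusted p = 0.00117). In the other label the first step was -6.47 ± 1.42 (edgeR adjusted p = 0.000965). The second was -3.12 ± 1.44 with adjusted p = 0.108, and -3.07 ± 0.78 with adjusted p = 0.00316 in edgeR without the 2 discordant libraries.

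Of the alternative route, Cyp27a1 encodes the mitochondrial hydroxylase that oxidises the sterol side chain. It was 691, 888, 652 and 819 CPM in WT-labelled vehicle libraries at 2 h, 172.9, 160.2, 128.3 and 189.7 CPM at 24 h, and 35.1, 110, 34.6 and 48.5 CPM at 120 h. Each of the 3 hours lay below the one before, and more of the log2 fall came before 24 h than after it. It fell by 2.23 ± 0.30 on the log2 scale to 24 h (edgeR adjusted p = 3e-07) and by 1.47 ± 0.30 after it (edgeR adjusted p = 0.000197). Its level first stood under 50% of the 2 h mean at 12 h and under 10% at 72 h.

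Cyp7b1 encodes the oxysterol hydroxylase that acts after CYP27A1. It was the one enzyme called between the labels in early vehicle libraries, and the call did not hold in every setting. At 2 h the WT-labelled vehicle libraries held 724, 1060, 223 and 262 CPM, and the PkmΔDRE-labelled ones 314, 250, 265 and 356 CPM. Replicates 1 and 2 of the WT label stood above all PkmΔDRE-labelled libraries, and replicates 3 and 4 lay among or below them. The same split was in the TCDD libraries at 2 h, with 715, 962, 235 and 360 CPM. Averaged over 2 to 12 h, vehicle Cyp7b1 was 1.86-fold lower with the PkmΔDRE label (log2 -0.90 ± 0.27, edgeR adjusted p = 0.0371), the 1 gene called of 9 where 2.72% of all genes were called. Without the 2 discordant libraries it was -0.80 ± 0.21 (edgeR adjusted p = 0.0196; 1.43% called). The call rested on 2 replicate numbers of all groups, since it was -0.80 (edgeR adjusted p = 0.209) without replicate 1 and -0.55 (edgeR adjusted p = 0.471) without replicate 2. Cyp7b1 was also not called with no filter on low counts (-0.89, edgeR adjusted p = 0.0768) or with replicate number as a block (-0.75, edgeR adjusted p = 0.0621). Over 24 to 120 h none of the 9 genes was called between the labels in vehicle (1.55% called), 3 had an unadjusted p under 0.05, and DESeq2 called 2.

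In culture Cyp7b1 fell with both labels. From 2 h to 24 h the log2 change was -3.82 ± 0.52 with the WT label (edgeR adjusted p = 3.37e-07) and -3.60 ± 0.80 with the other (edgeR adjusted p = 0.00103). At 120 h it was 5.35 to 9.59 CPM with the WT label and 5.18 to 6.40 CPM with the PkmΔDRE label, which overlap.

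Hsd3b7 encodes the dehydrogenase that remodels the sterol ring after the hydroxylases. It had 0 counts in every library. Of its exon bases, 99.17% are shared with the annotated genes Gm49388 and 9430064I24Rik, and pairs that overlap more than one gene are given to none by the counting used. The count of 0 is thus no level, and the gene entered no test.

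Amacr encodes the racemase that prepares the side chain for peroxisomal shortening. In WT-labelled vehicle libraries it was 97.34 to 117.4 CPM at 2 h, 21.7 to 31.3 CPM at 24 h and 11.2 to 13.2 CPM at 120 h, with no overlap. The log2 changes were -1.93 ± 0.24 and then -1.12 ± 0.24 (edgeR adjusted p = 7.12e-08 and 0.000399). The PkmΔDRE label gave -2.36 ± 0.38 and -1.09 ± 0.37 (edgeR adjusted p = 3.15e-05 and 0.0309). With the WT label Amacr kept the largest share of its start among the side-chain genes, 11.6% of the 2 h mean at 120 h. With the PkmΔDRE label it kept 9.18%, about the same as Baat (9.29%).

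Slc27a5 encodes the bile acyl-CoA synthetase that activates bile acids for conjugation. WT-labelled vehicle libraries held 1679, 2198, 1741 and 1986 CPM at 2 h and 221, 268, 247 and 288 CPM at 24 h. At 120 h they held 2.81, 17.7, 0.789 and 3.05 CPM. The libraries of the 3 hours were far apart, and the larger fold change came after 24 h. The log2 change was -2.89 ± 0.48 in the first step (edgeR adjusted p = 8.93e-06) and -5.37 ± 0.55 in the second (edgeR adjusted p = 4.24e-09), the largest of the second step. Libraries labelled PkmΔDRE gave -2.68 ± 1.18 (edgeR adjusted p = 0.077) and -7.24 ± 1.47 (edgeR adjusted p = 0.000902). The first of these was called without the 2 discordant libraries, at -2.74 ± 0.51 (edgeR adjusted p = 7.75e-05).

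Baat encodes the enzyme that joins bile acids to taurine or glycine. With the WT label it was 188 to 222 CPM at 2 h, 25.1 to 56.1 CPM at 24 h and 9.92 to 24.9 CPM at 120 h in vehicle. It fell by 2.53 ± 0.46 on the log2 scale to 24 h (edgeR adjusted p = 2.76e-05), and the further -0.97 ± 0.44 to 120 h missed the threshold (edgeR adjusted p = 0.0755). The loss with the PkmΔDRE label was also in the first step, -3.25 ± 0.40 (edgeR adjusted p = 7.07e-07), against -0.17 ± 0.37 in the second. The lowest means were at 72 h with the WT label and 48 h with the other, 7.27% and 6.51% of the 2 h mean.

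Of the regulators, Nr1h4, the gene of the bile acid receptor FXR, declined least. In WT-labelled vehicle libraries it was 59.3, 58.8, 80.7 and 48.4 CPM at 2 h, 51.2, 45.4, 55.4 and 33.7 CPM at 24 h, and 21.8, 23.1, 25.4 and 31.7 CPM at 120 h. On this TMM scale the first pair of hours overlapped and the last hour lay below both. Whether Nr1h4 also fell as a plain share of the pairs on genes was not tested. The log2 change to 24 h was -0.40 (95% interval -1.01 to 0.21) and missed the threshold, and from 24 h to 120 h it was -0.82 ± 0.30 (edgeR adjusted p = 0.0295). Only the whole span was called with the PkmΔDRE label, -1.10 ± 0.28 from 2 h to 120 h (edgeR adjusted p = 0.00212).

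Nr0b2, the gene of the corepressor SHP, fell to 24 h, and its mean then stood at 46.1% of the 2 h level at 72 h and 21.9% at 120 h with the WT label. Its 250 bases before the start in RefSeq are on the plus strand at chr4:133553126-133553375 (GRCm38.p6). They are shown because it was the 1 of 5 members with an entry that held the DRE core, which is in 28.2% of all 32851 promoter windows. Capitals mark GCGTG and, nearer the start, TATAAA, which lies 28 to 23 bases before it.
Nr0b2: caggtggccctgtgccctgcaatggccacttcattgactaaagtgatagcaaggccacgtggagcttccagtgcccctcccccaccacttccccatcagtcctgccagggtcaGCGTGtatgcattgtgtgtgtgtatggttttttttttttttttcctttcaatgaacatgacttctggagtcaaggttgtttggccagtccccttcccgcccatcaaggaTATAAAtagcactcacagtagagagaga
The match is a description of the letters and not of binding.

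With the WT label, Nr0b2 in vehicle was 3.35, 3.97, 6.45 and 4.46 CPM at 2 h and 0.544, 0.510, 0.443 and 0.0589 CPM at 24 h. It was 3.18, 2.96, 0.982 and 1.28 CPM at 72 h and 0.441, 1.01, 0.995 and 1.54 CPM at 120 h. All libraries at 72 h lay above those at 24 h and below those at 2 h. The change from 2 h to 24 h was -3.48 ± 0.72 (edgeR adjusted p = 0.000158), and from 24 h to 120 h 1.35 ± 0.69 (edgeR adjusted p = 0.114). Libraries labelled PkmΔDRE gave -5.08 ± 0.93 (edgeR adjusted p = 0.000125) and 2.24 ± 0.86 (edgeR adjusted p = 0.0527), the latter 2.30 ± 0.87 (edgeR adjusted p = 0.0424) without the 2 discordant libraries. Their vehicle libraries held 0.0861 to 0.413 CPM at 24 h and 2.98, 0.369, 0.189 and 0.626 CPM at 120 h. These ranges overlap, and replicate 1 at 120 h stood far above the rest.

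The remaining genes of bile acid metabolism mostly went the same way as the 9. From 2 h to 120 h with the WT label, 13 of 16 other enzymes were lower and 1 higher, where 24.5% of all genes were lower and 33.4% higher. Akr1c6 had the largest fall (log2 -11.35), and Cyp39a1, an oxysterol hydroxylase, was the one higher (1.65 ± 0.45). Of 12 tested transporters of bile acids and sterols, 7 were lower and 2 higher. Slc10a1, the sodium-dependent uptake carrier NTCP, fell by 9.77 ± 0.32 on the log2 scale, while Abcc4, an exporter of the basolateral membrane, rose by 5.76 ± 0.44. Of 12 tested regulators, 8 were lower and 3 higher, with Klb, the coreceptor for FGF15, at -4.88 ± 0.51 and Prox1 at 2.30 ± 0.32. With the PkmΔDRE label the counts were 11 lower and 1 higher of 16, 7 and 1 of 12, and 8 and 2 of 12, in the same order (background 22.7% lower and 26.8% higher), with 12 of 16 enzymes lower without the 2 discordant libraries and the other counts unchanged. Slc10a1 (-9.25 ± 1.64), Abcc4 (4.99 ± 1.11) and Prox1 (2.73 ± 0.59) were called there as well.

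TCDD changed few of the genes at any single hour. In libraries labelled WT, 69 tests of a member at an hour gave 5 calls, 3 lower at 8 h and 2 higher at 96 h. At 8 h, 7 of the 10 members passed the filter on low counts, and their 3 calls stood against a background of 37.4% called, 13.6% called lower and 45.5% past the adjusted p alone. At 96 h, 8 passed and 2 were called, against 15.1% called, 10.1% called higher and 32.8% past the adjusted p alone. Cyp8b1, among those called at 96 h, passed the filter through the TCDD group alone. At the other hours none of the tested members was called. The background was 0% at 2, 4 and 72 h. The hour 12 h had 0.0321%, 24 h had 0.373%, and 48 h had 0.00763%. For 120 h it was 1.46%, with 0.503% lower and 1.66% on the adjusted p alone. Over all hours 10 of the 69 tests had an unadjusted p under 0.05, and DESeq2 also gave 5 calls.

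**Figure D3:**
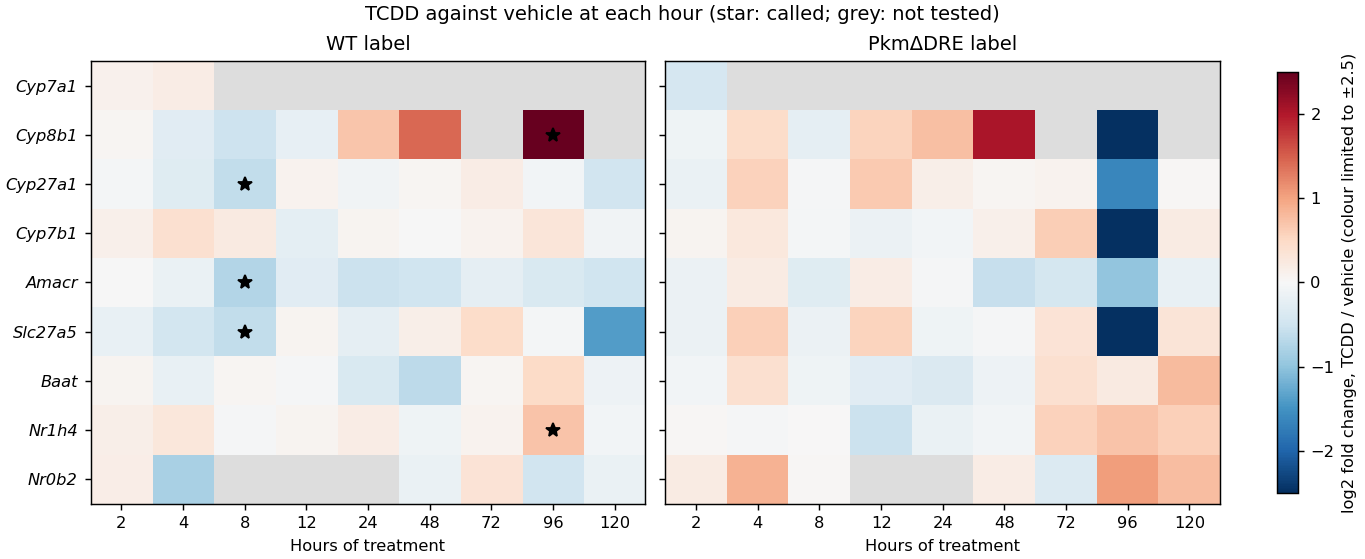
Log2 fold change of TCDD against vehicle at each hour (columns) for each gene (rows), by label; colours are limited to ±2.5, stars mark called genes and grey cells did not pass the filter on low counts. The 5 stars are all in libraries labelled WT, at 8 h and 96 h, and the dark cells at 96 h in the PkmΔDRE panel stand against a vehicle group that holds a discordant library.

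At 8 h with the WT label, Amacr was 49.6, 46.6, 53.4 and 47.9 CPM in vehicle and 30.4, 27.3, 18.9 and 32.4 CPM with TCDD. The groups did not overlap, and TCDD was lower by 0.73 ± 0.18 on the log2 scale (edgeR adjusted p = 0.00569). Cyp27a1 was 647, 643, 402 and 429 CPM in vehicle and 321, 400, 263 and 282 CPM with TCDD. All TCDD libraries were below all vehicle ones, by a narrow margin. The log2 change was -0.62 ± 0.19 (edgeR adjusted p = 0.0206). Slc27a5 was 1413, 1429, 843 and 887 CPM in vehicle and 712, 844, 585 and 580 CPM with TCDD. TCDD replicate 2 lay just above the lowest vehicle library. The log2 change was -0.62 ± 0.20 (edgeR adjusted p = 0.0257).

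The Cyp27a1 and Slc27a5 calls at 8 h each ended without vehicle replicate 1 or 2 or without TCDD replicate 3 or 4, with edgeR adjusted p between 0.0557 and 0.0837, while that of Amacr held without each library. Both held with RLE scaling, DESeq2 and no filter on low counts. They also held with replicate number as a block, at edgeR adjusted p of 0.000455 (Cyp27a1) and 0.000579 (Slc27a5), although the labels pair no libraries. The TCDD libraries of this hour stood apart from vehicle in more than these genes. Uniquely mapped pairs on no gene were 8.36 to 21.9% of such pairs with TCDD and 4.89 to 6.00% in vehicle, and the hepatocyte marker sum was 62910 to 67780 CPM against 77580 to 95240 CPM. Adjusted for that percentage, Amacr was called at -0.88 (edgeR adjusted p = 0.0103), but Cyp27a1 (-0.59, adjusted p = 0.0905) and Slc27a5 (-0.62, adjusted p = 0.0943) were not. Macrophage markers summed to 60.16 to 117.1 CPM with TCDD and 165 to 217 CPM in vehicle, and 5 stellate cell markers to 46.2 to 90.5 and 15.4 to 18.5 CPM, with up to 2 and 1 of the stellate markers at 0. The part of these sums in the result was not tested. In the same libraries Cyp8b1 was 14.4 to 23.5 CPM against 10.54 to 14.5 CPM, with a log2 change of -0.51 ± 0.22 that missed the threshold (edgeR adjusted p = 0.0721). Cyp7b1, Baat and Nr1h4 had log2 changes of 0.22, 0.04 and -0.02, none of them called.

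Of the other lists at 8 h with the WT label, the transporters were mostly higher. Of 12 transporters 7 were higher and none lower, where 23.8% of all genes were called higher and 13.6% lower, among them Abcb11, the canalicular bile salt export pump (1.59 ± 0.21, edgeR adjusted p = 0.000952), and Slco1b2, an uptake carrier (1.56 ± 0.33). Their median log2 change was 0.94, against 0.00 over all genes and -0.51 over the 7 members. Of 12 regulators 1 was higher, Prox1 (0.79 ± 0.29), and 3 were lower, including Nr1i2, the xenobiotic receptor PXR (-0.99 ± 0.29), and Nr1h3, the oxysterol receptor LXR alpha (-0.89 ± 0.20). Of 15 other enzymes 3 were higher, a share near that background, led by Akr1d1 (1.51 ± 0.41), which reduces the sterol ring after HSD3B7.

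At 96 h with the WT label, Cyp8b1 was 0.0481, 0.0947, 0.239 and 0.124 CPM in vehicle and 0.463, 0.937, 0.954 and 1.78 CPM with TCDD. Every TCDD library lay above every vehicle library, although the means were 0.113% and 0.922% of those at 2 h. The log2 change was 3.03 ± 0.59 (8.14-fold, edgeR adjusted p = 0.00327), and 2.67 with adjusted p = 0.0556 in edgeR adjusted for the percentage of uniquely mapped pairs outside genes. Every vehicle library held fewer than 10 reads of Cyp8b1, so it passed the filter on low counts through the TCDD group alone. The fold change thus rests on few reads. With no such filter it was 3.00 (edgeR adjusted p = 8.56e-05), from the same few reads and so no further support. Cyp8b1 passed the filter at 7 hours with the WT label. Nr1h4 was 24.9, 28.1, 34.3 and 33.8 CPM in vehicle and 46.5, 41.4, 41.9 and 57.3 CPM with TCDD. These did not overlap either, and the log2 change was 0.72 ± 0.13 (edgeR adjusted p = 0.00281). The hepatocyte marker sum was 6316 to 12550 CPM in vehicle and 11720 to 13620 CPM with TCDD, and its part in both results was not tested. Both calls held without each library of the groups, and without vehicle replicate 3, the one with high Cyp1a1, the changes were 3.52 and 0.78. At 120 h the Amacr groups did not overlap (11.2 to 13.1 CPM in vehicle and 7.21 to 11.1 CPM with TCDD). The log2 change of -0.50 ± 0.15 was not called (edgeR adjusted p = 0.129). How often such groups separate over all genes was not counted.

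In libraries labelled PkmΔDRE none of 69 such tests was called by edgeR, 10 had an unadjusted p under 0.05, and DESeq2 called 1, Slc27a5 at 96 h. The background was 0% at 2 and 4 h. It was 0.106%, 0.024% and 0.016% at 8, 12 and 24 h, and 0.404% and 1.13% at 48 and 72 h. For 96 and 120 h it was 0.0793% and 0.633%, and at 96 h 2.25% without the discordant library, when no member was called either. At 8 h the log2 changes of Amacr, Cyp27a1 and Slc27a5 were -0.31 ± 0.19, -0.03 ± 0.22 and -0.15 ± 0.22, and whether they differed from those with the WT label at this hour was not tested. At 48 h Cyp8b1 was 0, 0.318, 0 and 0.486 CPM in vehicle and 0.926, 0.845, 1.16 and 0.639 CPM with TCDD. The groups did not overlap, but the log2 change of 2.05 ± 0.92 was not called (edgeR adjusted p = 0.725). With vehicle libraries at 0, Cyp8b1 passed the filter on low counts through the TCDD group alone. The share of all genes with such a separation was not counted. At 96 h the change of Slc27a5 was -5.91 ± 2.06 with the discordant vehicle library (edgeR adjusted p = 0.629) and -0.19 ± 0.52 without it, and that of Cyp8b1 turned from -3.30 to 1.56.

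**Figure D4:**
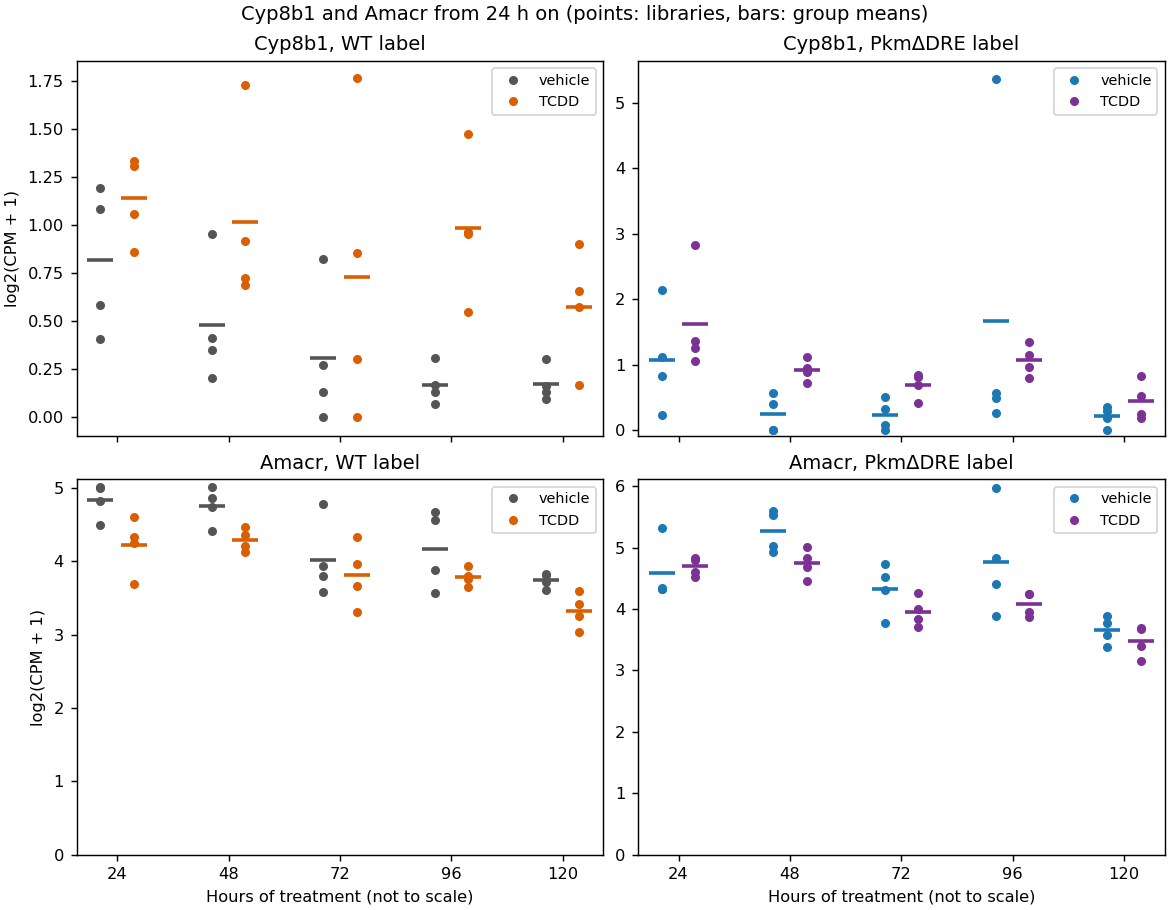
Cyp8b1 (top) and Amacr (bottom) in log2(CPM + 1) from 24 h on, by label; points are libraries and bars the mean of 4, and the vertical scale differs between panels. With the WT label the TCDD bar is above vehicle for Cyp8b1 and below it for Amacr at all 5 hours, and with the PkmΔDRE label the vehicle library at 96 h with 40.5 CPM of Cyp8b1 lifts its bar above TCDD.

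Averaged over several hours in a fit of all libraries, Cyp8b1 was the 1 member called late with the WT label. Its mean was higher with TCDD at 5 of 5 hours from 24 h on with the WT label. The WT-labelled means at these hours were 0.809, 0.424, 0.269, 0.127 and 0.129 CPM in vehicle and 1.23, 1.12, 0.863, 1.03 and 0.515 CPM with TCDD. Cyp8b1 in vehicle went on falling, and with TCDD it stayed near 1 CPM to 96 h. The averaged log2 change was 1.69 ± 0.43 (3.22-fold, edgeR adjusted p = 0.00679), the 1 gene called of 9 where 2.27% of all genes were called. It rested in part on single replicate numbers, as the adjusted p was 0.0796 without replicate 2 of every group and 0.124 without replicate 3, at 1.65 both times (edgeR). Without the 2 discordant libraries, which share the fit, it was 1.69 (edgeR adjusted p = 2.72e-05), and without the 4 that went against their treatment 2.02 (edgeR adjusted p = 0.00123).

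With the PkmΔDRE label the averaged change of Cyp8b1 from 24 h on was 0.52 ± 0.42 (edgeR adjusted p = 0.552). Without the 2 discordant libraries it was 1.45 ± 0.31 (edgeR adjusted p = 0.000438), and TCDD was then higher at 5 of 5 hours, against 4 of 5 with them. The difference between the labels in this response was -1.17 (95% interval -2.37 to 0.04) with them and -0.24 (-1.14 to 0.65) without them. No member was called for such a difference, either over 24 to 120 h (0.117% of all genes called, all 9 members with adjusted p = 1) or over 2 to 12 h (0.539% called). None had an unadjusted p under 0.05 in edgeR, and DESeq2 called none. Without the 2 discordant libraries the shares of all genes were 0.135% and 0.237%, and edgeR again called no member.

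Among the single hours Amacr was called with TCDD at 8 h alone, with the WT label. Its log2 change was below 0 at 9 of 9 hours with the WT label (-0.73 to -0.01) and at 7 of 9 with the PkmΔDRE label. Averaged over 24 to 120 h it was -0.46 ± 0.13 with the WT label (edgeR adjusted p = 0.0183), under the fold threshold. With the PkmΔDRE label it was -0.41 ± 0.13 (edgeR adjusted p = 0.0282), and -0.32 ± 0.11 (edgeR adjusted p = 0.0646) without the 2 discordant libraries. Averaged over 2 to 12 h it was -0.37 ± 0.14 with the WT label (edgeR adjusted p = 0.0375) and -0.10 ± 0.14 with the other (-0.16 ± 0.12 without the 2 discordant libraries). No member was called over 2 to 12 h with either label, where 16.1% of all genes were called with the WT label and 1.59% with the other (0.642% without the 2 discordant libraries), and DESeq2 likewise called none.

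The 1 member called late with the PkmΔDRE label, where 4.36% of all genes were called, was Slc27a5. Its averaged log2 change was -1.03 ± 0.31 (edgeR adjusted p = 0.0259), and 0.09 ± 0.19 (edgeR adjusted p = 0.897) without the 2 discordant libraries. Nr1h4 had an averaged change of 0.36 ± 0.14 there (edgeR adjusted p = 0.101; 0.32 ± 0.14 without them), and 0.14 ± 0.14 with the WT label. Cyp27a1, Cyp7b1, Baat and Nr0b2 lay between -0.38 and 0.28 with both labels, and none was called.

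Among the other genes of the pathway, the late TCDD changes ran alike in both labels for 4 genes. Por, the electron donor of microsomal cytochromes P450 such as CYP7A1 and CYP8B1, was higher by 0.94 ± 0.19 and 0.79 ± 0.19 on the log2 scale with the WT and PkmΔDRE labels. Cyp2a12, a bile acid hydroxylase of mouse liver, was higher by 0.79 ± 0.23 and 1.17 ± 0.23. Atp8b1, a phospholipid flippase of the canalicular membrane, was higher by 1.04 ± 0.21 and 0.88 ± 0.21, and Abcc4 by 0.94 ± 0.27 and 1.18 ± 0.27. All 8 values passed the threshold, with edgeR adjusted p from 0.000108 to 0.0284, and the 4 of the PkmΔDRE label were also called without the 2 discordant libraries. At 120 h with the WT label Por was 149 ± 17.9 CPM (SD, n = 4) in vehicle and 443 ± 41.2 CPM with TCDD, and Abcc4 was 288 ± 12.2 and 667 ± 48.4 CPM. Neither pair overlapped. Counted by list, 2 of 16 other enzymes, 3 of 14 transporters and 1 of 12 regulators were higher with the WT label and none was lower. Such higher genes were 1.37% of all genes tested. With the PkmΔDRE label 2, 2 and 1 were higher (background 1.93%) and 2 transporters were lower, Slco1a4 (-1.20 ± 0.37, edgeR adjusted p = 0.0265) and Slc10a1, which was -1.04 with and 0.30 without the 2 discordant libraries. Without them 3 enzymes were higher.

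As a description over the 36 group means of log2(CPM + 1), which share labels and hours, the genes most like Cyp8b1 among 11350 genes were Slc22a28 (Pearson r 0.992), Pbld2 (0.992) and Hsd3b5 (0.991). For Cyp7b1 they were Mup1 (0.990), Lifr (0.989) and Gabbr2 (0.986), and for Cyp7a1 Lipg (0.959), Cd79b (0.958) and Gja4 (0.952). Nr0b2 had weaker neighbours, Sephs2 (0.908), Tmem59 (0.899) and Ggcx (0.896). Among the members, the closest pairs were Cyp27a1 with Slc27a5 (0.969) and with Cyp7b1 (0.959).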

How the data were processed

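The authors trimmed read pairs with Trimmomatic 0.39 and aligned them with STAR 2.7 to GRCm39, and deposited raw counts of uniquely mapped pairs per gene for each library, without normalization. Unstranded counts of 55359 genes were used. Lines that name no gene held 16.8 to 48.0% of pairs and were left out of library sizes. Replicates were numbered in accession order. Tests used edgeR 4.0.16 (R 4.3.3): TMM scaling, filterByExpr (minimum count 10, total 15), robust quasi-likelihood F tests and Benjamini-Hochberg adjustment over all genes tested. Single hours were fitted alone, vehicle hours within a label, and averaged contrasts on 144 libraries. Fold changes of genes with a group at 0 are not printed. DESeq2 1.42.0 was an alternative. Scripts were tested on simulated data. Exon lengths and overlaps came from a GRCm38 annotation, and promoters from RefSeq GRCm38.p6, where 5 of 10 members matched (not Cyp7a1, Cyp7b1, Baat, Slc27a5 and Amacr). Members and lists were chosen with earlier results of these data known. All members are named. Of other lists, at most 2 called genes with the largest change each way were named per comparison.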

Additional observations from a re-analysis of the deposited data

Results flagged for a closer look

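Within groups of 4 libraries, 23 of 265 tests of a member at an hour had 1 library far from the other 3, where chance gives about 1 in 20. One of the 2 discordant vehicle libraries gave 4 of them, and the other gave none. Vehicle replicate 4 of the PkmΔDRE label at 96 h held 794 CPM of Cyp27a1 (others 49.9 to 72.6), 151 CPM of Cyp7b1 (6.85 to 7.41), 40.5 CPM of Cyp8b1 (0.202 to 0.477) and 1690 CPM of Slc27a5 (3.18 to 18.9).

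Vehicle replicate 2 of the PkmΔDRE label at 2 h was low in Amacr (75.8 CPM, others 140 to 152) and Cyp8b1 (57.4 CPM, others 149 to 152). TCDD replicate 1 of the WT label at 48 h was high in Cyp7b1 (31.1 CPM, others 11.6 to 13) and Cyp8b1 (2.32 CPM, others 0.615 to 0.890). Vehicle replicate 3 of the WT label at 72 h was low in Nr1h4 (5.68 CPM, others 29.7 to 32.9) and high in Slc27a5 (28.2 CPM, others 9.04 to 11.8). TCDD replicate 4 of the WT label at 2 h, which had low Cyp1a1, held 1045 CPM of Cyp27a1 (others 570 to 628).

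The other single libraries were spread over the groups. With the WT label, Amacr was 41.5 CPM in 1 TCDD library at 12 h (others 20.1 to 22.8), Cyp7b1 15.2 CPM with TCDD at 72 h (10.3 to 11), and Nr1h4 44.8 CPM with TCDD at 120 h (18.8 to 20.2). Slc27a5 was 1348 CPM with TCDD at 4 h (1039 to 1068) and 17.7 CPM in vehicle at 120 h (0.789 to 3.05). With the PkmΔDRE label, Amacr was 38.8 CPM in vehicle at 24 h (19 to 19.4), Slc27a5 1428 CPM in vehicle at 8 h (756 to 867), and Nr1h4 37.5 CPM in vehicle at 72 h (21.6 to 23.8). Cyp8b1 was 78.8 CPM with TCDD at 4 h (38.3 to 43.6) and 6.13 CPM with TCDD at 24 h (1.07 to 1.56). Nr0b2 was 2.98 CPM in vehicle (0.189 to 0.626) and 4.38 CPM with TCDD (0.683 to 0.962) at 120 h, in replicate 1 of each group.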

How the results depend on the processing

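The counts of called members from 2 h to 120 h in vehicle (9 and 9), from 2 h to 24 h (8 with the WT label and 7 with the other) and from 24 h to 120 h with the WT label (6) stayed within 1.5 times under RLE scaling, DESeq2, no filter on low counts, the block and the covariate. From 24 h to 120 h with the PkmΔDRE label the 4 calls became 1 with no filter. TCDD calls at single hours with the WT label went from 5 to 2 adjusted for the percentage of unique pairs outside genes, and with the PkmΔDRE label from 0 to 1 by DESeq2. With no fold threshold, the calls averaged over 2 to 12 h with the WT label went from 0 to 1, and those over 24 to 120 h from 1 to 2 with the WT label and from 1 to 2 with the other. The last was 0 with no filter. The label difference in vehicle was 0 in place of 1 with no filter over 2 to 12 h, and over 24 to 120 h 1 with RLE and 2 with DESeq2 in place of 0. The cause of these shifts was not tested. Slc27a5 averaged over 24 to 120 h with the PkmΔDRE label turned from -1.03 to 0.09 without the 2 discordant libraries, and ranged from -1.27 to 0.21 when 1 replicate number of every group was left out, with 0.21 without replicate 4.

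Leaving out 1 replicate at a time gave 3 to 6 TCDD calls at single hours with the WT label and 0 to 0 with the other. For the hours in vehicle it gave 8 to 8 and 7 to 8 (2 h to 24 h), 5 to 6 and 2 to 4 (24 h to 120 h), and 9 to 9 with both labels (2 h to 120 h). Averaged TCDD calls over 24 to 120 h were 0 to 1 with each label, and the label difference in vehicle was 0 to 1 in both windows. The other averaged counts were 0 to 0.

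Replicate numbers follow the order of the libraries and the labels pair none. A replicate block by that order gave 1 call at single hours with the PkmΔDRE label, and 2 without the 2 discordant libraries. It gave 0 for the label difference in vehicle over 2 to 12 h, where Cyp7b1 was -0.75 (edgeR adjusted p = 0.0621). Without the 2 discordant libraries the block gave 1 for that over 24 to 120 h, and Slc27a5 at 0.14 for TCDD. Every vehicle library correlated best with the TCDD library of its own number at 24 and 48 h with the WT label only, a hint from the data and not the design. On average a weaker form of it was present in both labels. At each hour, the mean correlation of deviations from the group mean was 0.02 to 0.61 for equal numbers, with single values down to -0.33. The mean for unequal numbers (-0.20 to 0.00) largely follows from it, since deviations within a group sum to 0, and adds no support. The main fits left this order out. Depth limits Cyp7a1 after 12 h and Cyp8b1 after 24 h, which were near or at 0 counts.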
